A study of Homo sapiens with 12 samples.

Results

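Expression of 10 genes of the cyclin-dependent kinase (CDK) system was followed in A375 melanoma cells treated with SB-3CT and interferon-γ (IFN-γ). The genes were taken by their symbols, from a table of 4918 genes with symbols from A1BG to FAM46B. They comprise 5 kinases (CDK1, CDK2, CDK4, CDK6 and CDK7) and 5 genes of the CDKN series (CDKN1B, CDKN2A, CDKN2C, CDKN2D and CDKN3). A375 is an established human melanoma cell line, and all 12 samples came from this single line. SB-3CT is a small-molecule inhibitor of the gelatinases MMP2 and MMP9, and IFN-γ is a T cell cytokine that induces PD-L1. Cells of the SB-3CT group received SB-3CT, those of the IFN-γ group received IFN-γ, and those of the SB-3CT+IFN-γ group received both, with a treatment time of 24 h. The Control group received neither agent. Each of the 4 groups had 3 samples. The labels do not say whether the 3 samples of a group were separate cultures, so the p-values measure the spread between these samples, which may be technical.

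The CDKs followed here work in the cell cycle, each as a complex with a cyclin. CDK4 and CDK6 pair with D-type cyclins early in the cycle, CDK2 with cyclins E and A around DNA replication, and CDK1 with cyclins A and B at mitosis, while CDK7 with cyclin H activates the other kinases and also serves in transcription. The INK4 proteins made from CDKN2A, CDKN2C and CDKN2D hold CDK4 and CDK6 inactive, the protein made from CDKN1B (Kip1) inhibits CDK2 complexes, and CDKN3 is a phosphatase that removes the activating phosphate from CDKs. In melanoma the CDKN2A locus, which also encodes ARF, is a well known tumor suppressor locus.

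Among these genes, CDKN1B and CDKN2C had the largest changes that passed the test when SB-3CT was added to IFN-γ: relative to IFN-γ alone, mean FPKM fell by 38% for CDKN1B and fell by 35.5% for CDKN2C. CDK2 was raised by SB-3CT given alone, with a mean 1.43 times that of Control. With SB-3CT+IFN-γ its deposited mean was 52.7 FPKM, against 52.9 in Control, and no test compared these groups. The log2 change from SB-3CT alone to both agents was -0.51 as deposited but -0.27 under another scaling, the median ratio (below). CDK7 fell by 23.8% with IFN-γ alone. CDK4, the most abundant of the 10, did not pass the test in any comparison on the deposited scale. FPKM counts fragments for each kilobase of a transcript relative to the mapped fragments of the sample. All log2 changes below are on the scale log2(FPKM + 1), on which the changes of weakly expressed genes come out too small. In RNA from whole cultures, a different mix of cells along the cycle and a different amount of RNA per cell cannot be told apart. Tests are from limma over all 4918 genes with Benjamini-Hochberg adjustment, and a gene was called at an adjusted p-value under 0.05.

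The promoters of some of these genes hold short sequences known from cell cycle genes, and they are shown for genes whose mRNA moved. RefSeq windows (GRCh38.p14) from 250 bases before to 50 bases after a transcription start were found for 9 of the 10 genes (15 windows), CDK2 being the exception. Both strands were searched for the CHR element of cell cycle genes (TTTGAA), the CCAAT box (CCAAT), 2 forms of the E2F site (TTTGGCGC and TTTCCCGC) and the GAS element bound by STAT proteins (TTCNNNGAA). CCAAT was found for CDKN1B and CDKN2C, the pair that fell together, and also for CDK1, CDKN2D and CDKN3. TTTGAA was found for CDK1 and CDKN3, and TTCNNNGAA for CDKN3 alone. Neither E2F form was in a window of the 9 genes. Counted by window, 6 of the 15 windows held CCAAT, 3 held TTTGAA and 1 held TTCNNNGAA. Among all 35116 windows of the same length, 34.6% held CCAAT, 15.2% TTTGAA, 7.66% TTCNNNGAA, 0.652% TTTGGCGC and 1.63% TTTCCCGC, so the CCAAT match is a common one. Where a gene had several matches of 1 motif, the match nearest to a start is printed: CDK1 had 3 of TTTGAA, beginning 161, 69 and 13 bases before a start, and CDKN1B had 2 of CCAAT, at 174 and 50 bases. The stretches below, read along the gene's strand, have the match in capitals, and no printed match overlaps another. The printed CCAAT match of CDKN1B begins 50 bases before a start (chr12:12717306-12717334, plus strand) and that of CDKN2C 95 bases before (chr1:50970138-50970166, plus strand). The printed CHR match of CDK1 begins 13 bases before a start (chr10:60778453-60778477, plus strand). The CHR match of CDKN3, in reverse, begins 170 bases before (chr14:54396825-54396854, plus strand) and its GAS match 160 bases before (chr14:54396837-54396865, plus strand). A match is a description of these letters and not of a bound factor.
CDKN1B, CCAAT box: ccgccgccgcaaCCAATggatctcctcct
CDKN2C, CCAAT box: aggagcccctctCCAATggctcagttttg
CDK1, CHR: tagcgcggtgagTTTGAAactgctc
CDKN3, CHR in reverse: tcccgcgcgtctTTCAAAggtcttctagga
CDKN3, GAS: ttcaaaggtcTTCTAGGAAccagtcagcg

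The labels of the IFN-γ groups were checked with the IFN-γ-induced chemokine gene CXCL10, which was listed at 0 to 0.05 FPKM in the 6 samples without IFN-γ and at 78.7 to 122 in the 6 with it. CD274, which encodes PD-L1, was at 0.428 to 0.808 FPKM without and 13.5 to 23.9 with IFN-γ. Of 6 melanocytic markers, 4 (CSPG4, EDNRB, ERBB3 and CDH19) were at 1 FPKM or more in all samples, while DCT and CAPN3 were below 1 in all. None of 4 fibroblast, 4 endothelial and 3 keratinocyte markers reached 1 FPKM in all samples. Of 4 immune markers, CD68 alone did. The number of reads per sample is not known, but the steps of the lowest values gave depths of 87.0% to 149.8% of the Control mean. Genes called lower outnumbered those called higher with SB-3CT+IFN-γ against IFN-γ (1547 against 315). With samples scaled by the median ratio (division by the sample's median ratio to the gene-wise geometric mean), the split was 811 lower and 763 higher. Among genes averaging 1 FPKM or more the median change was -0.20 as deposited and 0.004 under that scaling. Longer transcripts were also lower in SB-3CT+IFN-γ: the log2 value, relative to the gene's mean over all samples, moved by -0.132 to -0.11 per doubling of transcript length in these 3 samples, against -0.033 to 0.109 in the other 9.

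Levels per transcript length spanned a wide range. CDK4 had a mean of 278 FPKM over the 12 samples and lay at percentile 98.4 of the 4918 genes. CDK2 (59.3), CDK1 (48.8) and CDK7 (46.0) followed, and the ranges of these 3 over all samples overlapped. Next came CDKN2C (32.0 FPKM), CDKN3 (27.2), CDKN2D (20.3) and CDKN1B (14.7), with overlapping ranges between neighbours. CDK6 had a mean of 8.64 FPKM and CDKN2A, the lowest, 5.04 (percentile 57.0), and their ranges overlapped as well. All 10 genes averaged more than 1 FPKM, and none was left out of a fit. The plot of FPKM by sample shows each gene in the 4 groups.

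**Figure D1:**
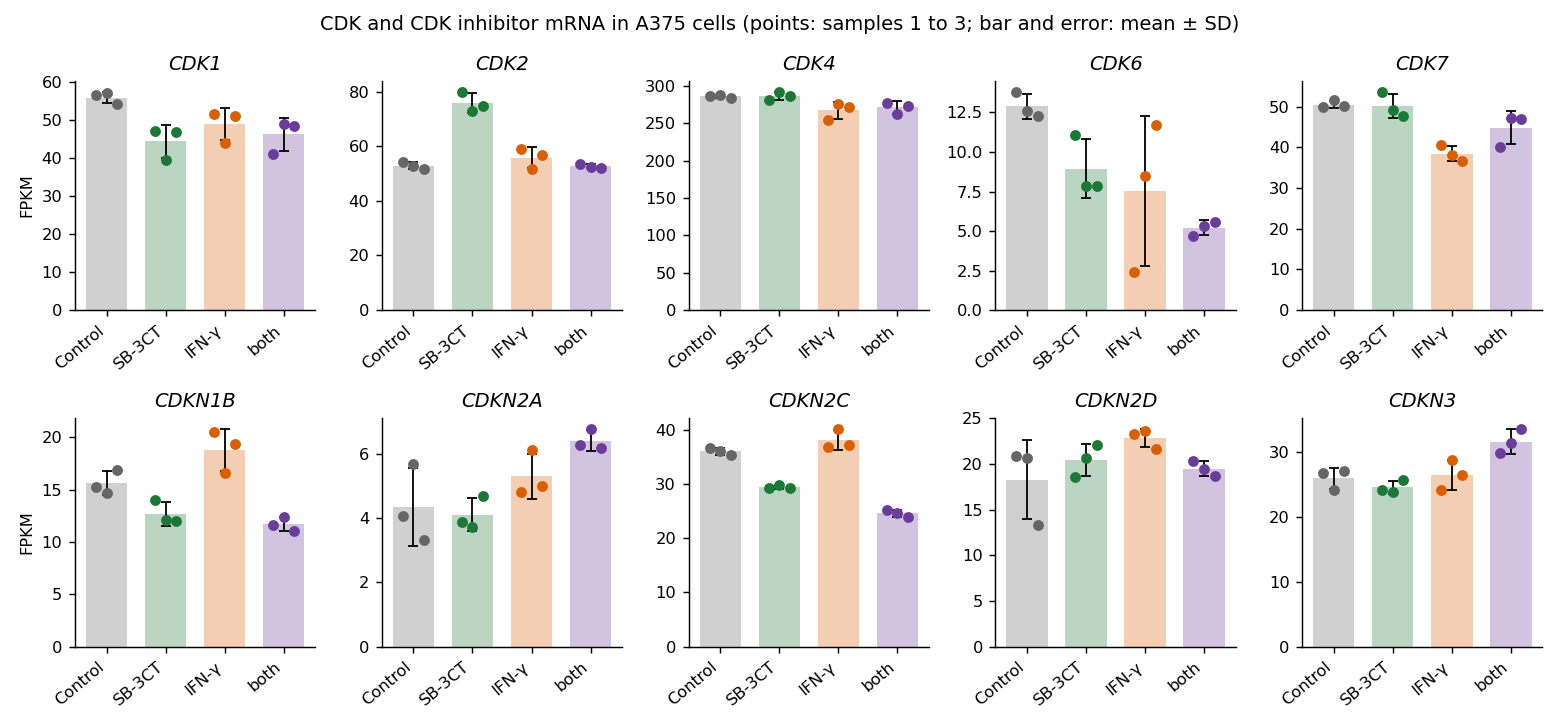
FPKM (vertical axis, linear from 0, one scale per panel) of the 10 genes in the Control, SB-3CT, IFN-γ and SB-3CT+IFN-γ (both) groups. Points are the 3 samples of a group in the order of their numbers, and bars with errors are the mean ± SD. CDK2 stands highest with SB-3CT alone (72.8 to 79.9 FPKM), CDKN1B and CDKN2C stand lower with both agents than with IFN-γ, and 1 IFN-γ sample has CDK6 at 2.4 FPKM.

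CDK4 lies on chromosome 12 (hg19, 58141510 to 58149796, minus strand) and CDK6 on chromosome 7 (92234235 to 92465887, minus strand). CDK4 was at 287, 288 and 284 FPKM in the Control samples, 281, 292 and 287 with SB-3CT, 255, 276 and 272 with IFN-γ, and 278, 262 and 274 with SB-3CT+IFN-γ. The samples without IFN-γ were all above those with it, by little. With SB-3CT the log2 change was 0.003 against Control (95% confidence interval -0.09 to 0.09) and 0.02 with IFN-γ present (-0.11 to 0.15). CDK4 thus had the narrowest span of group means of the 10 genes, 0.10 on the log2 scale. It was called higher with SB-3CT+IFN-γ than with IFN-γ after scaling by the median ratio (0.26, adjusted p = 0.0419), a scaling that raises all genes in this comparison. Under quantile normalization the same change was -0.13 (adjusted p = 0.0898). There CDK4 was called lower with both agents than with SB-3CT (-0.14, adjusted p = 0.0177), so its direction depended on the scaling.

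CDK6 was at 13.8, 12.6 and 12.3 FPKM in Control, 11.1, 7.88 and 7.84 with SB-3CT, 2.4, 8.48 and 11.7 with IFN-γ, and 4.67, 5.34 and 5.6 with SB-3CT+IFN-γ. All Control samples were above all treated samples, and the 3 samples with both agents lay below the 3 with SB-3CT. The IFN-γ samples were spread over the whole range of the treated samples. CDK6 was lower with SB-3CT than in Control (log2 change -0.50, SE 0.127, adjusted p = 0.0469) and lower with SB-3CT+IFN-γ than with SB-3CT (-0.67, SE 0.141, adjusted p = 0.0124). The first call was lost in 5 of 6 fits with 1 sample left out (adjusted p from 0.137 to 0.17) and both were lost when all 4 groups shared one fit (adjusted p = 0.399 and 0.161). Against IFN-γ alone the change was -0.26 (SE 0.432, adjusted p = 0.685). This value rests on IFN-γ replicate 1, without which CDK6 was called lower, at -0.82 (adjusted p = 0.0218). After the transcript length trend was removed the change against IFN-γ was 0.12 (adjusted p = 0.884), and the length used for CDK6 is by far the greatest of the 10 at 11663 bases. IFN-γ replicate 1 was the deepest sample (149.8% of the Control mean), and CDK6 was 1 of only 4 of 3177 genes that lay more than 1 log2 unit from both other IFN-γ samples there. IFN-γ against Control gave -0.91 (SE 0.464, adjusted p = 0.238), and -0.34 without that sample.

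CDK2 is on chromosome 12 (56360565 to 56366573, plus strand). It was at 54.2, 52.9 and 51.7 FPKM in Control, 79.9, 72.8 and 74.6 with SB-3CT, 59.1, 51.6 and 56.9 with IFN-γ, and 53.5, 52.4 and 52.2 with SB-3CT+IFN-γ. The 3 SB-3CT samples stood apart above all 9 others. CDK2 was higher with SB-3CT than in Control by 0.51 on the log2 scale (SE 0.047, adjusted p = 0.00247), and both agents against SB-3CT gave -0.51 (SE 0.043, adjusted p = 0.000591). When IFN-γ was present the SB-3CT change was -0.08 (95% confidence interval -0.22 to 0.06, adjusted p = 0.355). These SB-3CT changes differed by -0.59 (SE 0.075, adjusted p = 0.0023). Both called changes and the difference kept their direction and their call under every setting tried except the fold threshold of 1.5, which neither change reached and which was not applied to the difference. Their sizes did move: under the median ratio both agents against SB-3CT gave -0.27 (adjusted p = 0.0026) and the difference was -0.38 (adjusted p = 0.00265). Only the uncalled change with IFN-γ present turned, to 0.16 (adjusted p = 0.0236) under the median ratio. It was also called lower without IFN-γ replicate 2 (-0.14, adjusted p = 0.0393).

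CDK1 lies on chromosome 10 (62538089 to 62554610, plus strand). It was at 56.4, 56.9 and 54.1 FPKM in Control, 47.0, 39.4 and 46.7 with SB-3CT, 51.5, 44 and 50.9 with IFN-γ, and 41.1, 48.9 and 48.4 with SB-3CT+IFN-γ. Every Control sample was above every treated sample, and the 3 treated groups overlapped. CDK1 was lower with SB-3CT than in Control (log2 change -0.33, SE 0.071, adjusted p = 0.0307). This call was lost in 5 of 6 fits with 1 sample left out (adjusted p from 0.0573 to 0.12). The change was -0.19 with IFN-γ alone (adjusted p = 0.1) and -0.08 with SB-3CT+IFN-γ against IFN-γ (95% confidence interval -0.29 to 0.13). The ratio of CDK1 to CDK2 puts the pair side by side within a sample. Its log2 was 0.08 ± 0.03 in Control, -0.78 ± 0.11 with SB-3CT, -0.20 ± 0.03 with IFN-γ and -0.20 ± 0.16 with SB-3CT+IFN-γ (SD, n = 3 each). The SB-3CT samples, at -0.89 to -0.68, lay below all others.

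CDK7 lies on chromosome 5 (68530622 to 68573257, plus strand). It was at 49.8, 51.5 and 50.1 FPKM in Control, 53.6, 49.1 and 47.8 with SB-3CT, 40.5, 38.2 and 36.7 with IFN-γ, and 40.1, 47.2 and 47.0 with SB-3CT+IFN-γ. The IFN-γ samples lay below both groups without IFN-γ, and 1 sample with both agents fell among them. CDK7 was lower with IFN-γ than in Control (log2 change -0.39, SE 0.047, adjusted p = 0.00317), the only call among the 10 genes in that comparison. SB-3CT alone gave -0.01 (95% confidence interval -0.13 to 0.11). With IFN-γ present SB-3CT gave 0.21 (SE 0.076, adjusted p = 0.0645), which was called under 5 settings, among them the median ratio (0.45, adjusted p = 0.00652). CCNH, the cyclin partner of CDK7, named here after its value was seen, had 0.22 in that comparison and was not called (adjusted p = 0.0664). Of 23 measured cyclin genes, 14 were called lower there and 1 higher.

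CDKN2C, the INK4 gene with the clearest changes, lies on chromosome 1 (51426417 to 51440306, plus strand). It was at 36.6, 36.0 and 35.4 FPKM in Control, 29.3, 29.8 and 29.2 with SB-3CT, 36.9, 40.2 and 37.2 with IFN-γ, and 25.2, 24.6 and 23.9 with SB-3CT+IFN-γ. No 2 groups overlapped, with the order IFN-γ, Control, SB-3CT and both agents from high to low. CDKN2C fell by 0.61 on the log2 scale with SB-3CT+IFN-γ against IFN-γ (SE 0.054, adjusted p = 0.00194). SB-3CT against Control gave -0.28 (SE 0.037, adjusted p = 0.00897), and the 2 SB-3CT changes differed by -0.33 (SE 0.06, adjusted p = 0.00585). That difference lost its call under the median ratio (-0.13, adjusted p = 0.344) and quantile normalization (-0.21, adjusted p = 0.0722). Both agents against SB-3CT gave -0.25 (SE 0.035, adjusted p = 0.00289), or -0.01 (adjusted p = 0.869) under the median ratio and -0.12 (adjusted p = 0.031) under quantile normalization. The fall against IFN-γ held under all of these, at -0.38 after the median ratio, -0.51 after quantile normalization and -0.76 after removal of the length trend.

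CDKN2D, another INK4 gene, lies on chromosome 19 (10677136 to 10679735, minus strand). It was at 20.9, 20.7 and 13.3 FPKM in Control, 18.6, 20.7 and 22.1 with SB-3CT, 23.3, 23.6 and 21.7 with IFN-γ, and 20.3, 19.5 and 18.7 with SB-3CT+IFN-γ. Control replicate 3 was the lowest of all 12, and the samples with both agents lay below those with IFN-γ. The change between these groups was -0.22 (SE 0.057, adjusted p = 0.0206), and under the median ratio it was 0.008 (adjusted p = 0.931) and under quantile normalization -0.05 (adjusted p = 0.575). It was lost as well in 3 of the 6 fits with 1 sample left out (adjusted p from 0.0572 to 0.0746). The log2 ratio of CDKN2C to CDKN2D, which needs no scaling, was 1.01 ± 0.35 in Control, 0.53 ± 0.13 with SB-3CT, 0.74 ± 0.07 with IFN-γ and 0.33 ± 0.02 with both agents (SD, n = 3 each). In all samples with both agents the ratio was lower than in any other sample.

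CDKN2A lies on chromosome 9 (21967751 to 21995300, minus strand) and overlaps the antisense gene CDKN2B-AS1, and whether the counting used strand was not stated, so reads of the pair cannot be told apart. The p16 and ARF transcripts were not separated. It was at 4.07, 5.68 and 3.32 FPKM in Control, 3.88, 3.74 and 4.7 with SB-3CT, 4.81, 6.11 and 4.99 with IFN-γ, and 6.27, 6.79 and 6.18 with SB-3CT+IFN-γ. The 3 samples with both agents lay above all 9 others. CDKN2A was higher with SB-3CT+IFN-γ than with SB-3CT by 0.54 (SE 0.088, adjusted p = 0.00497). Against IFN-γ the change was 0.24 (SE 0.097, adjusted p = 0.0926), called under 4 settings, among them the median ratio (0.45, adjusted p = 0.0221). With the length trend removed it was 0.10 (adjusted p = 0.427).

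CDKN1B lies on chromosome 12 (12838432 to 12875303, plus strand). It was at 15.3, 14.7 and 16.9 FPKM in Control, 14, 12.1 and 12 with SB-3CT, 20.5, 16.6 and 19.4 with IFN-γ, and 11.6, 12.4 and 11.1 with SB-3CT+IFN-γ. The samples with IFN-γ and with both agents did not overlap, while Control overlapped with IFN-γ alone. CDKN1B fell by 0.64 on the log2 scale with SB-3CT+IFN-γ against IFN-γ (SE 0.086, adjusted p = 0.00247), and the value was -0.42 under the median ratio and -0.49 with the length trend removed, called in each. SB-3CT against Control gave -0.28 (SE 0.079, adjusted p = 0.0604) and IFN-γ against Control 0.25 (SE 0.09, adjusted p = 0.105). Each of these passed under several settings, such as a fit restricted to genes averaging 1 FPKM or more (adjusted p = 0.0246 and 0.043). The SB-3CT changes with and without IFN-γ differed by -0.36 (SE 0.121, adjusted p = 0.0513). That difference passed for genes averaging 1 FPKM or more (adjusted p = 0.0278), and under the median ratio it was -0.17 (adjusted p = 0.249).

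CDKN3 lies on chromosome 14 (54863567 to 54886936, plus strand). It was at 26.7, 24.1 and 27.0 FPKM in Control, 24.1, 23.9 and 25.7 with SB-3CT, 24.1, 28.8 and 26.5 with IFN-γ, and 29.8, 31.4 and 33.6 with SB-3CT+IFN-γ. Only the samples with both agents stood apart, above all 9 others. CDKN3 was higher there than with IFN-γ by 0.25 (SE 0.078, adjusted p = 0.04) and than with SB-3CT by 0.35 (SE 0.056, adjusted p = 0.00458). The SB-3CT changes with and without IFN-γ differed by 0.32 (SE 0.1, adjusted p = 0.0392). With the length trend removed the rise over IFN-γ was 0.04 (adjusted p = 0.664) and the difference 0.14 (adjusted p = 0.396), and the length used for CDKN3, 841 bases, is the shortest of the 10. Under the median ratio the 3 values were larger, at 0.48 over IFN-γ, 0.59 over SB-3CT and 0.52 for the difference, and all were called. On the deposited scale the call over IFN-γ and that of the difference were lost in 5 of 6 and in 8 of 12 fits with 1 sample left out. The interval plot sets the 10 genes side by side in each comparison.

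**Figure D2:**
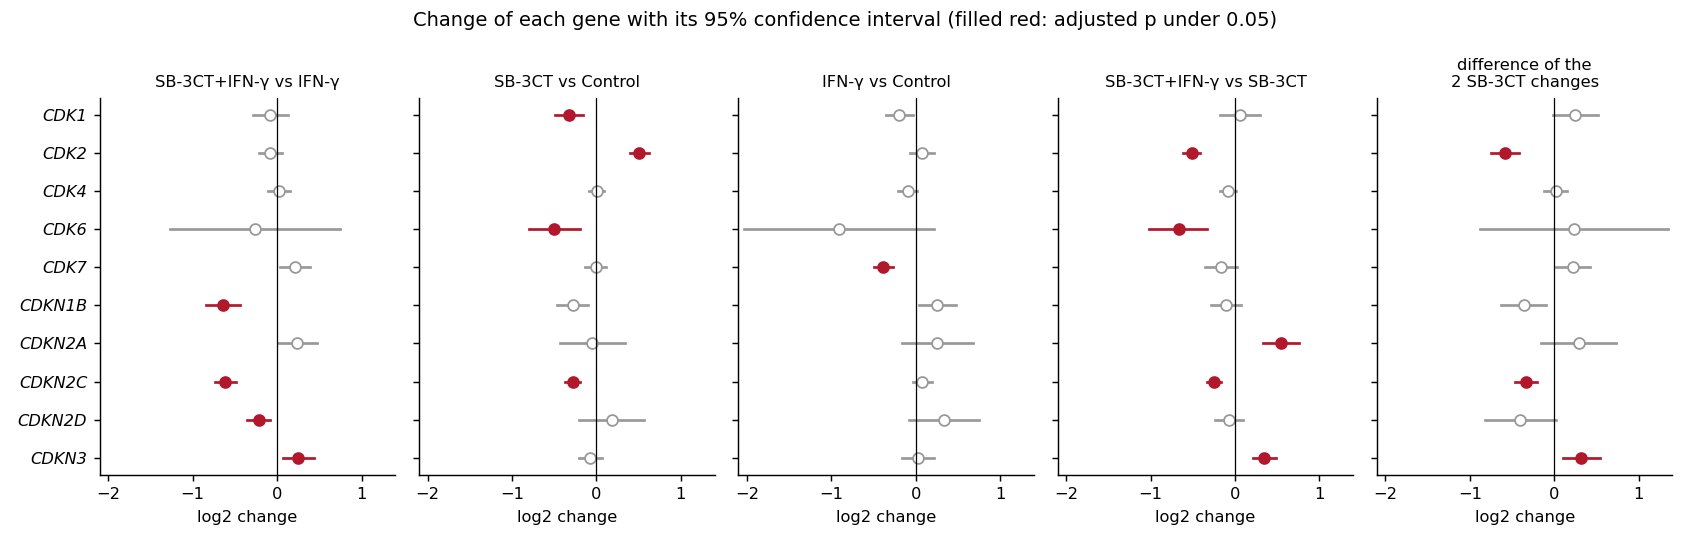
Log2 change (horizontal axis) of each gene in the 4 comparisons and, at the right, the SB-3CT change in the presence of IFN-γ minus that in its absence, with 95% confidence intervals from limma. Filled red points had an adjusted p-value under 0.05, and the widest interval is that of CDK6 wherever the IFN-γ samples enter.

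Whether SB-3CT alters gene expression in IFN-γ-treated cells is the comparison the study turned to for pathways. Of the 10 genes, 3 were lower with SB-3CT+IFN-γ than with IFN-γ (CDKN1B, CDKN2C and CDKN2D), where 31.5% of all genes were lower, and 1 was higher (CDKN3), where 6.41% of all genes were higher. None of the 5 kinases was called in this fit over all genes. Some other fits of the deposited values called CDK7 higher, CDK6 lower or CDK2 lower. The share of the 10 genes called lower in this fit is near that of the table as a whole. The median change of the 10 genes was -0.08, and that of all 4918 genes -0.09. Among genes averaging 1 FPKM or more, as all 10 did, the median was -0.20. In a fit of only those 3177 genes, 1510 were called lower and 348 higher. Of the 10 genes, 3 were lower and 3 higher in that fit. Under the median ratio 7 of the 10 were called, 5 of them higher (CDK2, CDK4, CDK7, CDKN2A and CDKN3) and 2 lower (CDKN1B and CDKN2C). Of all 4918 genes, 763 were called higher and 811 lower under that scaling. The falls of CDKN1B and CDKN2C thus kept their direction and their call, at sizes smaller by more than 1.5 times (-0.42 and -0.38). The scaling plot shows how each gene moved between settings.

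**Figure D3:**
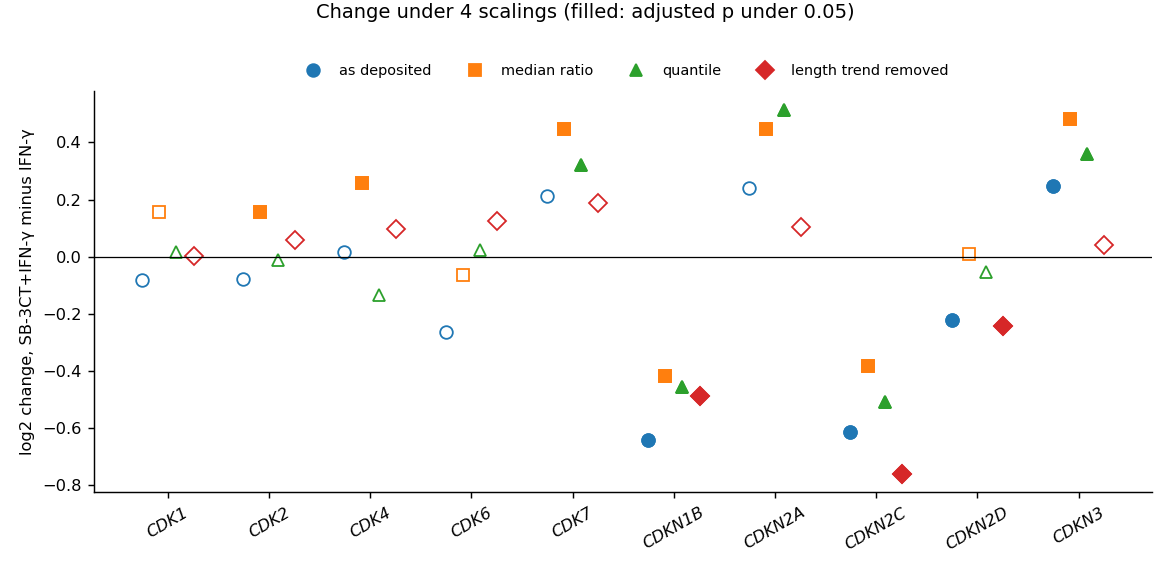
Log2 change (vertical axis) of each gene with SB-3CT+IFN-γ against IFN-γ on the deposited scale, after scaling by the median ratio, after quantile normalization and after removal of the transcript length trend. Filled symbols had an adjusted p-value under 0.05, and only CDKN1B and CDKN2C are filled and below 0 in all 4 settings.

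SB-3CT given alone addresses the drug's effect without the cytokine. With SB-3CT against Control, 3 of the 10 genes were lower (CDK1, CDK6 and CDKN2C), where 6.87% of all genes were, and 1 was higher (CDK2), where 5.37% were. The median change of the 10 genes was -0.06, that of all genes -0.01 and that of genes averaging 1 FPKM or more -0.03. Only CDK2 and CDKN2C were called in every fit with 1 sample left out. IFN-γ against Control had 1 gene lower (CDK7), where 11% of all genes were lower, and 0 higher, where 8.46% were. Of the other 9 genes, 2 had an unadjusted p-value under 0.05 there, CDK1 (0.0281) and CDKN1B (0.03). The median change was 0.05 for the 10 genes, -0.02 for all and -0.04 for genes averaging 1 FPKM or more.

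The response to IFN-γ in cells that also received SB-3CT had 2 of the 10 genes higher (CDKN2A and CDKN3), where 7.85% of all genes were, and 3 lower (CDK2, CDK6 and CDKN2C), where 32.7% were. The median change of the 10 genes was -0.095, that of all genes -0.11 and that of genes averaging 1 FPKM or more -0.21. In a fit of only the latter genes, 1609 were called lower and 361 higher, against 3 and 2 of the 10. The SB-3CT change in the presence of IFN-γ differed from that in its absence for 3 genes. It was below 0 for CDK2 and CDKN2C, as for 17.6% of all genes, and above 0 for CDKN3, as for 4.74%. Under the median ratio 3 genes were above 0, CDK1 (0.45, adjusted p = 0.021), CDK7 (0.43, adjusted p = 0.013) and CDKN3, and CDK2 alone was below 0. Of all genes, 382 were called above 0 and 275 below 0 under that scaling. The 4 comparisons share samples, so their values are given side by side and are not independent of each other.

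Other cell cycle genes of the table, in lists written by hand, show the setting of these changes. The lists were chosen with earlier results of these data known. With SB-3CT+IFN-γ against IFN-γ, 31.5% of all genes were lower and 6.41% higher. In SB-3CT+IFN-γ against IFN-γ, 14 of 23 measured cyclin genes were lower and 1 was higher, with a median change of -0.30. CCNE2, an E-type cyclin that binds CDK2, was lower (9.47 to 4.61 FPKM, log2 change -0.90, adjusted p = 0.00194), as was CCNA2 (29.3 to 19.5 FPKM, -0.56, adjusted p = 0.0055), whereas CCNB1, the mitotic partner of CDK1, was higher (112 to 130 FPKM, 0.21, adjusted p = 0.0166). Of 19 other CDK genes 10 were lower and 1 higher, with a median of -0.25. Among them were CDK12 (11.2 to 6.82 FPKM, -0.64, adjusted p = 0.0028) and CDK14 (4.06 to 2.21 FPKM, -0.65, adjusted p = 0.00418), and CDK5 was the higher one (0.17, adjusted p = 0.0469).

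Of 20 CDK regulators 6 were lower and 4 higher, with a median of -0.10. CKS2 and CKS1B, small subunits that bind CDKs, were higher (554 to 857 FPKM, 0.64, adjusted p = 0.00762, and 303 to 433 FPKM, 0.52, adjusted p = 0.00207). The Kip family inhibitor gene CDKN1C was lower like CDKN1B (3.7 to 2.16 FPKM, -0.58, adjusted p = 0.00357), and so was CACUL1 (7.33 to 4.6 FPKM, -0.57, adjusted p = 0.00454). CDKN1A, the remaining Kip family gene, named here after its value was seen, went the other way (274 to 340 FPKM, 0.31, adjusted p = 0.00598).

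The E2F and S phase list had 26 of 30 genes lower and 0 higher, with a median of -0.46. The G2 and M phase list had 23 of 29 lower and 0 higher, with a median of -0.66. Of all genes, 31.5% were lower and 6.41% higher. At an unadjusted p-value under 0.05, for which no share of all genes is given, limma also gave 0 higher in both lists, and 27 and 24 lower. Their largest falls were those of ATAD2 (10.7 to 4.82 FPKM, adjusted p = 0.00207), CLSPN (6.62 to 3.07 FPKM, -0.90, adjusted p = 0.00218), CENPF (10.3 to 4.86 FPKM, -0.94, adjusted p = 0.00207) and ECT2 (11.5 to 5.7 FPKM, -0.89, adjusted p = 0.00207). Under the median ratio the list medians were -0.28 and -0.46, with 18 and 20 genes lower and 0 and 3 higher. With the length trend removed they were -0.21 and -0.36, with 15 and 17 lower and 0 and 1 higher. Of all 4918 genes, 811 were lower and 763 higher under the median ratio, and 576 and 395 with the length trend removed. For cyclins, other CDKs and CDK regulators the medians after the median ratio were -0.07, -0.13 and 0.09, with 5, 5 and 2 genes lower and 4, 2 and 7 higher. In the same comparison the mitotic kinase gene CDK1 changed by -0.08 and was not called. The distribution plot places the 10 genes beside these lists.

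**Figure D4:**
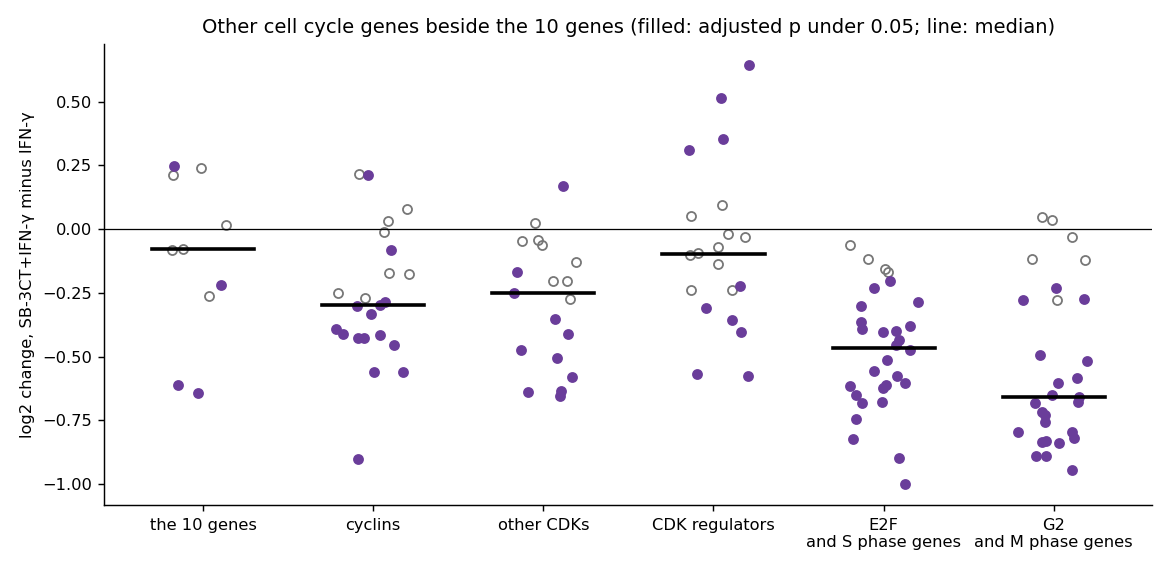
Log2 change (vertical axis) with SB-3CT+IFN-γ against IFN-γ of the 10 genes and of the genes of 5 hand-written lists on the deposited scale. Each point is a gene, filled where the adjusted p-value was under 0.05, and the black line is the median, which is -0.08 for the 10 genes and -0.66 for the G2 and M phase genes.

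The same lists were counted in the other comparisons. Of all genes, 5.37% were higher and 6.87% lower with SB-3CT against Control. With IFN-γ against Control, 8.46% of all genes were higher and 11% lower. For the counts at an unadjusted p-value no share of all genes is given. With SB-3CT against Control the cyclins had 5 lower and 2 higher (median -0.04), the E2F and S phase genes 3 lower and 2 higher (-0.12), the G2 and M phase genes 4 lower and 2 higher (-0.16), and the CDK regulators 0 lower and 3 higher (0.01). None of the other CDKs was called by limma. At an unadjusted limma p-value under 0.05, 2 other CDKs were higher and 1 lower, and 8 CDK regulators were higher and 1 lower. At that threshold the cyclins had 5 higher and 8 lower, the E2F and S phase genes 4 and 9, and the G2 and M phase genes 4 and 12. With IFN-γ against Control 11 of the 30 E2F and S phase genes were higher and 0 lower (median 0.24), and 3 of the 29 G2 and M phase genes were higher and 0 lower (0.14). At an unadjusted p-value under 0.05 these lists had 18 and 11 genes higher and 1 and 0 lower. Under the median ratio 20 and 11 were called higher and 1 and 0 lower, and with the length trend removed 16 and 4 higher and 1 and 0 lower. Of all 4918 genes, 580 were called higher and 526 lower under the median ratio, and 469 and 820 with the length trend removed. On the deposited scale the cyclins had 5 lower and 2 higher with IFN-γ against Control, the other CDKs 1 of each and the CDK regulators 4 lower and 2 higher. With both agents against SB-3CT, 11 cyclins, 8 other CDKs, 10 CDK regulators, 7 E2F and S phase genes and 9 G2 and M phase genes were lower, and 0, 0, 2, 1 and 0 were higher (0, 1, 2, 1 and 0 at an unadjusted p-value under 0.05), where 32.7% of all genes were lower. Most of these calls were not made under the median ratio, which left 2, 2, 2, 0 and 1 genes lower and 3, 1, 2, 1 and 0 higher, with medians from -0.05 to 0.06. Of all genes, 7.85% were higher on the deposited scale, and under the median ratio 657 were called higher and 547 lower.

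For each gene called in at least 1 comparison, the gene with the most similar profile was sought among 3176 genes averaging 1 FPKM or more. Likeness was the root mean square difference of the log2 values over the 12 samples, each gene centred on its own mean. CDK1 was nearest to CAPZA2 (0.043), CDKN1B to EZH2 (0.057), CDK7 to CDC123 (0.058), CDKN2C to ATXN10 (0.072), CDKN3 to C14orf142 (0.073) and CDK2 to CENPT (0.075). CDKN2D (ECSIT, 0.13), CDKN2A (C1orf53, 0.135) and CDK6 (CALB2, 0.391) had less similar neighbours. The root mean square of each gene's own centred values, which gives the scale, ran from 0.151 for CDKN3 to 0.612 for CDK6.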

How the data were processed

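RNA-seq of 12 A375 samples in 4 groups of 3 was used. Per the submitters' processing notes, the authors aligned reads to hg19 with HISAT2 2.0.5 and computed FPKM with StringTie 1.3.3. The authors' deposited values are on a log2 scale and fit log2(FPKM + 1). They were used as they are, which the design had allowed for, and 2 to the power of the value minus 1 gave FPKM. The 4918 genes have symbols from A1BG to FAM46B, and later symbols were not analysed here. All columns matched a sample by name.

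The tests used limma (version 3.58.1, R 4.3.3) with lmFit and a trended eBayes, unpaired, on the 3 + 3 samples of a comparison or, for the difference of the SB-3CT changes, on all 12, with Benjamini-Hochberg adjustment over all genes. An exact permutation test of 3 against 3 cannot go below p = 0.1. The fits were tested on simulated data in which 200 of 4918 genes had a log2 change of 1. For SB-3CT+IFN-γ against IFN-γ 98% of these were recovered, with 13 other genes called. For the difference 94.5% were recovered, with 6 others. The largest called changes of the genes followed were smaller, at -0.64 with SB-3CT+IFN-γ against IFN-γ (CDKN1B) and -0.59 for the difference (CDK2). Recovery of changes of such sizes was not tested. The simulation also does not show how far calls depend on the scaling of the samples. The members and the lists were chosen with earlier results of these data known. All members were named. From each list the 2 largest called rises and falls with SB-3CT+IFN-γ against IFN-γ were named (mean FPKM of at least 1), and CCNH and CDKN1A in addition, after their values had been seen. Lengths of the canonical transcripts came from GENCODE release 44 on hg19 and covered 98.5% of symbols. The absolute depth is unknown, and counting error is therefore not given. The labels do not say whether the replicate numbers pair samples, and the samples were treated as unpaired. Alternatives were another pseudocount (0.1), only genes averaging 1 FPKM or more, the median ratio (computed over those genes), quantile normalization, removal of the length trend (lowess span 0.5, summed FPKM kept), all 4 groups in one fit, a replicate block, eBayes without trend or robust, each sample left out, and a fold change over 1.5 with an unadjusted p-value under 0.05.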

Additional observations from a re-analysis of the deposited data

Results flagged for a closer look

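The SB-3CT changes with and without IFN-γ differed for 3 of the 10 genes by the limma interaction term over all 12 samples. For CDK2 the difference was -0.59 on the log2 scale: 0.51 without IFN-γ and -0.08 with it. It was -0.38 under the median ratio, where the difference was also called for CDK1 (0.45) and CDK7 (0.43). For CDKN2C it was -0.33, with falls of -0.28 and -0.61, and it was not called after scaling by the median ratio. For CDKN3 it was 0.32, with changes of -0.07 and 0.25, and it was not called once the transcript length trend was removed.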

How the results depend on the processing

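With SB-3CT+IFN-γ against IFN-γ, 7 of the 10 genes were called after scaling by the median ratio. Of these 5 were higher and 2 lower, against 1 and 3 on the deposited scale. At a fold change over 1.5 with an unadjusted limma p-value under 0.05, 2 were called. Leaving out 1 sample gave 2 to 6 of the 10. Of all genes, 763 were higher and 811 lower under the median ratio, against 315 and 1547 as deposited. CDK2 turned to 0.16 and CDKN2D to 0.01 (0.008) under the median ratio, which by its construction moves all genes of a sample together. For SB-3CT against Control the left-out fits gave 2 to 5, and the fold rule 0. For IFN-γ against Control 2 genes were called under the restriction to a mean of 1 FPKM, the median ratio, quantile normalization and the length trend removed, 1 to 2 in the left-out fits, and 0 by the fold rule. SB-3CT+IFN-γ against SB-3CT gave 1 by the fold rule and 5 in every left-out fit, and the difference of the SB-3CT changes 2 to 4 in the left-out fits.

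Over all genes, the counts called ran from 73 to 912 for SB-3CT against Control with 1 sample left out (602 with all), as low as 562 for IFN-γ against Control (958), 1230 for SB-3CT+IFN-γ against IFN-γ (1862) and 678 for the difference of the SB-3CT changes (1099). The last count was 657 under the median ratio, 640 under quantile normalization and 459 with the length trend removed, and that of both agents against SB-3CT 1204 under the median ratio (1994 as deposited). The fold rule left 367, 49, 234 and 278 genes in the 4 comparisons. Lower genes were 83.1% of those called with SB-3CT+IFN-γ against IFN-γ on the deposited scale, 51.5% after the median ratio, 56.8% after quantile normalization and 59.3% (576 against 395 higher, 971 in all) with the length trend removed. With both agents against SB-3CT the shares were 80.6%, 45.4%, 61.5% and 68.7%. Of the changes of single genes under all settings, 728 kept their side of the threshold (36 of them, uncalled in either setting, changed sign), 37 lost and 33 gained a call, and 2 of the called or newly called changes reversed. Same-numbered samples of the compared groups had correlations of -0.39 to 0.17, so no strong positive link between them was seen. Samples with different numbers were not correlated, and these values cannot settle whether the numbers pair samples. With the replicate number as a block, 4, 3, 1, 5 and 3 of the 10 genes were called in the 5 comparisons (CDK1 with SB-3CT alone lost its call, adjusted p = 0.0606), and 259 of all genes for SB-3CT against Control. The cause of these changes was not tested.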
